A study of Arabidopsis thaliana with 6 samples.

Results

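UDP-glycosyltransferases (UGTs) are the enzymes that join a sugar, usually glucose taken from UDP-glucose, to small molecules. The genes described here are the probe sets of the ATH1 array that the platform annotation gives 1 gene whose symbol is UGT followed by a number. There were 47 such probe sets, each for another gene, among 22746 probe sets other than the manufacturer's controls and among 13513 probe sets with 1 annotated gene. RefSeq (assembly TAIR10.1) gave all 47 genes the same symbol and held 58 genes with a symbol of this form. A further 3 probe sets stand for several genes with a UGT among them, and no gene was named from these.

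In plants, adding a sugar makes hormones, phenolics, flavonoids and foreign compounds more soluble and commonly less active, and marks many of them for storage in the vacuole. The number in a UGT symbol is the family, set by protein sequence, and the letter after it the subfamily. Families are gathered in phylogenetic groups, and members of 1 family can act on unlike compounds. Members known in Arabidopsis act on salicylate, auxin, cytokinins, abscisic acid, monolignols, flavonols, sterols and the precursors of glucosinolates, the sulphur-containing defence compounds of the cabbage order.

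The plants were wild-type Arabidopsis thaliana Col-0, 3 weeks old and before flowering, from seed kept for 24 h at 4 °C, grown on soil under 16 h of light, at 23 °C and 50% relative humidity. The control group had 3 arrays and the group given Myzus persicae saliva had 3 (this insect is the green peach aphid, a phloem feeder). All 6 started from total RNA, with biotin as the label. Tissue, way and time of the saliva treatment and any treatment of the controls are not given in the labels used here. Nothing in them says that replicates came from separate plants, so p-values here reflect array-to-array spread alone, possibly technical.

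All 6 arrays shared a trimmed mean signal of 100.01, with medians of 32.4 to 33.4. Saliva replicate 3 stood farthest from the others, with a score of 22.9 on the first principal component against -13.0 to 5.28 for the rest, so results without it are given as well. Of the 10 leaf photosynthesis genes chosen as tissue markers, 4 were named on the array, with control mean signals of 2348 to 6873. Their summed signal was 17486 to 18496 in the controls and 14395 to 16542 with saliva, without overlap of the groups. Singly, all 4 were lower without overlap, against 7.7% of all tested probe sets, and their lowest limma adjusted p was 0.420. The part of this difference in the results below was not tested. The 3 root markers PYK10, EXPA7 and EXPA18 had a summed signal of 8.10 to 17.3 in the controls and 9.38 to 18.7 with saliva. Flower and phloem markers were not analysed here, since none was named. In such RNA from whole samples, fewer cells of a type and less RNA per cell cannot be told apart.

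A gene was counted as detected when its mean of log2(signal + 16) over the 6 arrays was at least 5, which a steady signal of 16 would give. By this measure 23 of the 47 UGT genes were detected and 24 were not, 48.9% against 60.7% of all probe sets and 55.2% of those with 1 gene. These shares are descriptions, with no test between them. The threshold lay between UGT72E2 at 5.04 and UGT84A4 at 5.12 on one side and UGT85A7 at 4.98 and UGT76D1 at 4.70 on the other. Signals of different probe sets depend on their probes and do not rank the transcripts.

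Each of the 11 families had at least 1 detected gene. Family 85 had 4 of 5 detected and family 72 had 3 of 4. Families 74 and 78 had 2 of 3 each, and family 84 had 2 of 5. Family 71, with 9 named genes, and family 76, with 8, had 3 detected each. Family 73 had 1 of 7, UGT73B1. The families with a single named gene, UGT80B1, UGT87A2 and UGT88A1, were all detected.

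**Figure D1:**
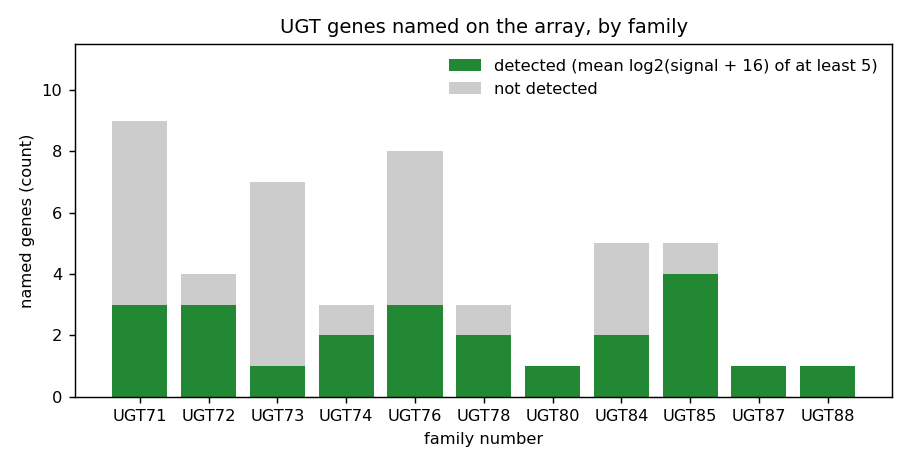
Number of named UGT genes (vertical axis, count) in each family (horizontal axis), split into detected genes (green) and genes not detected (grey). Family 85 has 4 of 5 genes detected and family 73 has 1 of 7.

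Among the 24 genes not detected, 23 had a signal under 16 on all 6 arrays and 13 a signal under 8 on all 6. The exception was UGT85A7, with signals of 33.1, 21.2 and 5.17 on the control arrays and 22.5, 15.5 and 5.39 on the saliva arrays. It was low on replicate 3 of both groups, and the groups overlapped. The genes not detected included several hormone enzymes, while others, such as UGT76C1, UGT76C2 and UGT71C5 described below, were detected. UGT74F1 (AT2G43840), which makes salicylate glucoside, had signals of 0.750 to 1.36 in the controls and 0.949 to 2.01 with saliva. UGT76B1 (AT3G11340), which glucosylates isoleucic acid, salicylate and N-hydroxypipecolic acid, had 5.86 to 11.3 and 6.79 to 8.81. UGT84B1 (AT2G23260), an auxin glucosyltransferase, had 0.445 to 2.01 and 1.21 to 2.82. UGT84A1, of the hydroxycinnamate enzymes, had 0.684 to 0.875 and 0.567 to 0.767. Whether signals this low exceeded background was not tested. UGT74F2 and UGT73C5, from the short list of genes with known roles, were not among the named genes, so their transcripts are not described.

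The detected genes had means of 5.04 to 9.03 on the log2(signal + 16) scale. The SD between the 3 control arrays was 0.046 (UGT80B1) to 0.34 (UGT84A4), with a median of 0.13 over the 23 genes and 0.13 over all tested probe sets. Between the 3 saliva arrays it was 0.032 (UGT84A3) to 0.41 (UGT85A2), with a median of 0.17 over the 23 genes and 0.14 over all tested probe sets. No array carried the highest values throughout: control replicate 2 was highest for 6 of the 23 genes, saliva replicates 2 and 3 for 5 each. Control replicate 3 was lowest for 8.

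**Figure D2:**
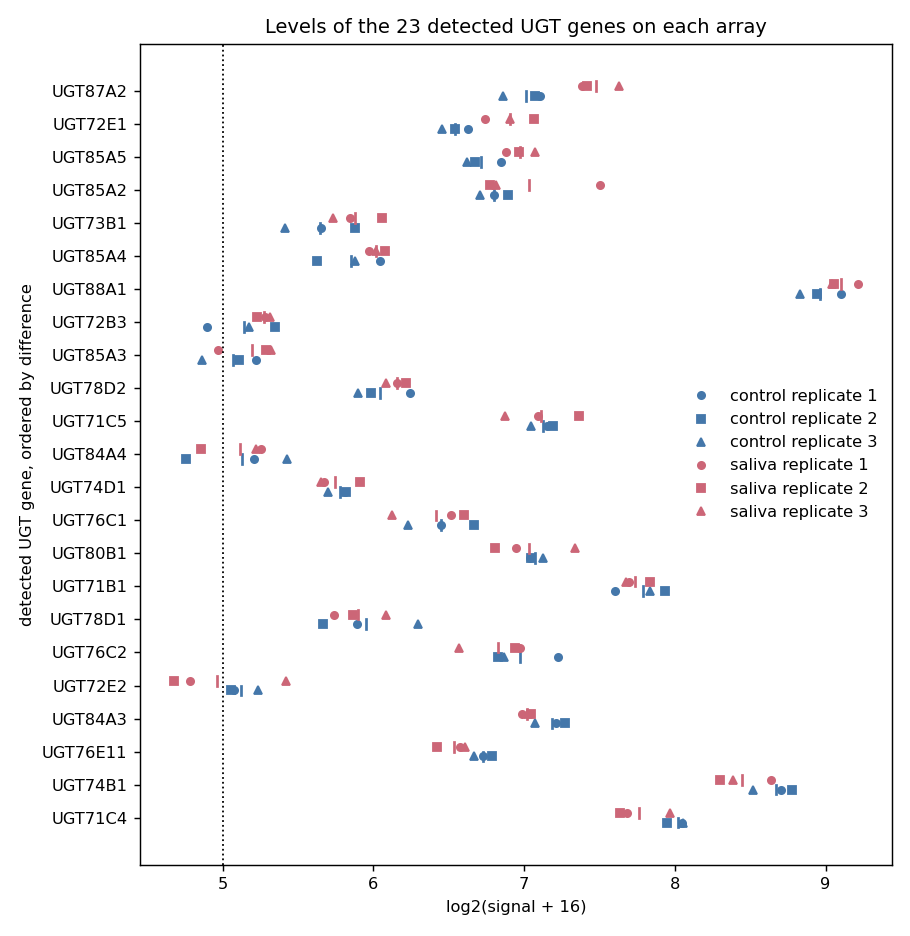
Level of each of the 23 detected UGT genes (vertical axis, ordered by difference) as log2(signal + 16) (horizontal axis) on the 3 control arrays (blue) and 3 saliva arrays (red), with marker shapes for replicates 1 to 3, short bars for group means and a dotted line at the detection threshold of 5. The saliva points lie right of all control points for UGT87A2, UGT72E1 and UGT85A5 and left of them for UGT76E11 and UGT84A3.

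The question was which UGT transcripts differed between saliva and control plants. 0 of the 23 detected genes passed a limma adjusted p of 0.05 over the 13801 probe sets tested, where 8 probe sets, 0.058%, passed. At an unadjusted p under 0.05 there were 4 of 23 genes, UGT87A2, UGT72E1 and UGT85A5 higher with saliva and UGT71C4 lower, which is 17.4% against 10.2% of all probe sets tested (13.0% against 5.38% higher and 4.35% against 4.78% lower). The 3 saliva values lay wholly above the 3 control values for UGT87A2, UGT72E1 and UGT85A5 and wholly below for UGT76E11 and UGT84A3, 5 of 23 or 21.7%, against 15.5% of all probe sets tested. By direction this is 13.0% of the genes above and 8.70% below, against 7.82% and 7.7% of all probe sets. With so few genes these shares stand near the background and are no result about the UGT genes as a whole. 10 of the 23 were higher with saliva and 13 lower, with a median difference of -0.019 on the log2(signal + 16) scale, against 0.0058 and 51.6% higher over all tested probe sets. The median was 0.063 without saliva replicate 3 and 0.070 without saliva replicate 2.

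The limma 95% intervals limit how large a difference these arrays could have missed. For each of the 23 genes the interval lay within -1 and 1, and the outermost bounds were -0.57 for UGT72E2 and 0.72 for UGT87A2. For 16 of 23, or 69.6%, it lay within -0.5 and 0.5, a 1.41-fold difference either way, against 76.4% of all tested probe sets. These bounds and folds hold on the log2(signal + 16) scale, which understates changes in signal, most of all for dim genes.

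**Figure D3:**
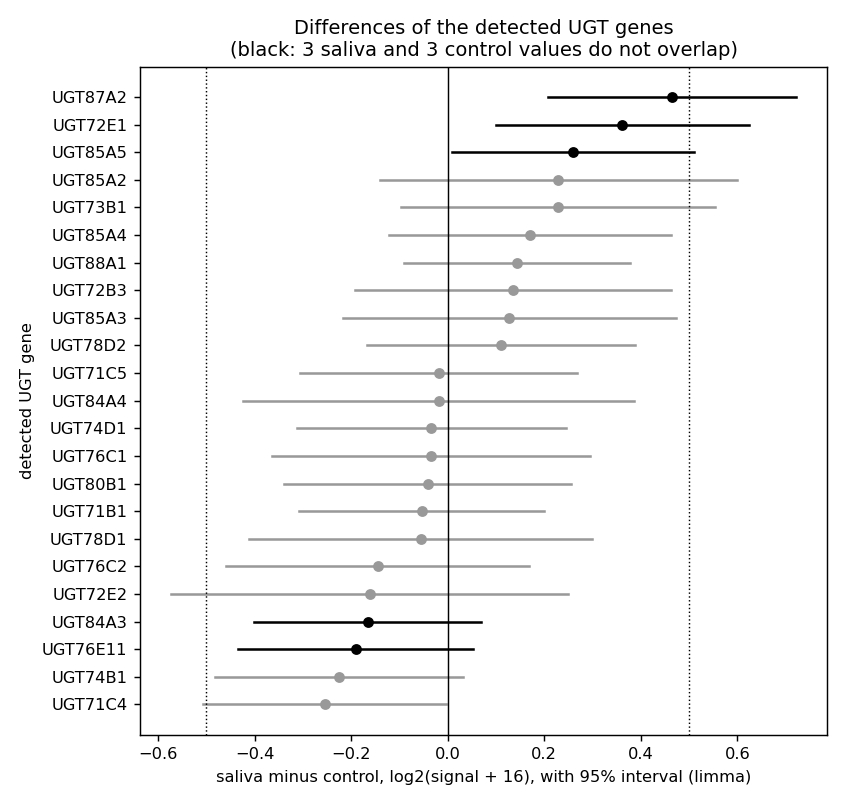
Difference between saliva and control for the 23 detected UGT genes (vertical axis) on the log2(signal + 16) scale (horizontal axis), with limma 95% intervals as lines, dotted lines at -0.5 and 0.5, and genes whose groups do not overlap in black. The values run from -0.25 for UGT71C4 to 0.46 for UGT87A2.

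UGT87A2 (AT2G30140), known for an effect on flowering time, had the largest difference of the 23. Its signals were 122, 118 and 100.2 in control replicates 1 to 3 and 151, 155 and 182 in saliva replicates 1 to 3. All saliva arrays lay above all control arrays, and saliva replicate 3 was the highest. The means were 7.01 ± 0.13 and 7.48 ± 0.13 (SD, n = 3) on the log2(signal + 16) scale. This is a difference of 0.46 ± 0.12 (SE), or 1.38-fold in signal + 16, with a limma adjusted p of 0.173. Without saliva replicate 3 the difference was 0.39 (adjusted p = 0.270 in limma). Without single arrays it ran from 0.39 to 0.51, and over all alternatives its adjusted p ran from 0.125 to 0.398.

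Of the families with 2 or more detected genes, family 85 was the one in which all detected genes, 4 of 4, had values above 0, and 1 of these rested on a single array. UGT85A5 (AT1G22370), reported to raise salt tolerance when expressed in tobacco, had signals of 99.2, 86.2 and 82.4 in control replicates 1 to 3 and 102, 109 and 119 in saliva replicates 1 to 3. The groups did not overlap, though control replicate 1 and saliva replicate 1 lay close together. The difference was 0.26 ± 0.12 (limma adjusted p = 0.473), and 0.21 without saliva replicate 3.

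UGT85A2 (AT1G22360) had signals of 95.4, 103 and 88.7 in control replicates 1 to 3 and 165, 93.5 and 96.6 in saliva replicates 1 to 3. A single array, saliva replicate 1, was high, and the other 2 saliva arrays lay within the control range. Its difference of 0.23 ± 0.17 was -0.0067 without that array. UGT85A4 and UGT85A3 differed by 0.17 ± 0.14 and 0.13 ± 0.16, with overlapping groups. UGT85A4 was 0.058 without control replicate 2 and 0.27 without control replicate 1, and UGT85A3 was 0.063 without saliva replicate 3.

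UGT72E1, UGT72E2 and UGT72E3 glucosylate monolignols, the building blocks of lignin, and their aldehydes. UGT72E1 (AT3G50740), which acts on coniferyl and sinapyl aldehyde, had signals of 83.0, 77.3 and 71.8 in control replicates 1 to 3 and 91.1, 118 and 104 in saliva replicates 1 to 3. All saliva arrays were above all control arrays, with saliva replicate 1 nearest to them. The difference was 0.36 ± 0.12, or 1.28-fold (limma adjusted p = 0.294), 0.36 without saliva replicate 3, and 0.28 to 0.44 without single arrays.

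UGT72E2 (AT5G66690), the main enzyme for coniferyl and sinapyl alcohol, had signals of 17.8, 17.2 and 21.7 in control replicates 1 to 3 and 11.6, 9.64 and 26.8 in saliva replicates 1 to 3. Saliva replicate 3 was above and the other 2 saliva arrays below every control array. The difference was -0.16 ± 0.19 (limma adjusted p = 0.831) and -0.39 without saliva replicate 3 (adjusted p = 0.390 in limma), and without single arrays it ran from there to -0.020, the value without saliva replicate 2. UGT72E3 was not detected, at signals of 0.838 to 2.13 in the controls and 0.748 to 1.86 with saliva. UGT72B3 differed by 0.13 ± 0.15.

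The UGT84A enzymes make glucose esters of hydroxycinnamates such as sinapate. UGT84A3 (AT4G15490) had signals of 133, 138 and 118 in control replicates 1 to 3 and 111, 116 and 114 in saliva replicates 1 to 3. The saliva arrays were close together and all below the controls, the nearest being control replicate 3. The difference was -0.17 ± 0.11 (limma adjusted p = 0.653), and also -0.17 without saliva replicate 3. UGT84A4 (AT4G15500), its neighbour, had signals of 21.0, 11.1 and 27.0 in control replicates 1 to 3 and 22.2, 13.0 and 21.4 in saliva replicates 1 to 3, and differed by -0.019 ± 0.19.

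UGT74B1 (AT1G24100) adds the glucose of glucosinolates to thiohydroximates. Its signals were 401, 424 and 351 in control replicates 1 to 3 and 382, 299.8 and 319 in saliva replicates 1 to 3. Saliva replicate 1 lay within the control range and the other 2 below it. The difference was -0.23 ± 0.12 (limma adjusted p = 0.550), -0.20 without saliva replicate 3, and -0.32 to -0.16 over all single arrays left out. UGT74D1 (AT2G31750), which acts on auxin compounds, differed by -0.034 ± 0.13, and by 0.013 without saliva replicate 3.

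Families 71 and 76 had 3 detected genes each, and all 6 had values below 0, though not all kept this sign with single arrays left out. Families 74 and 84, with 2 detected genes each, likewise had values below 0 only. Over all tested probe sets 51.6% were higher with saliva, and shared signs within families were not tested. UGT71C4 (AT1G07250) had signals of 249, 231 and 250.2 in control replicates 1 to 3 and 189.9, 183 and 235 in saliva replicates 1 to 3. Saliva replicate 3 lay inside the control range and the other 2 well below it. The difference was -0.25 ± 0.12 (limma adjusted p = 0.490) and -0.36 without saliva replicate 3 (adjusted p = 0.262 in limma). UGT71C5 (AT1G07240), which glucosylates abscisic acid, differed by -0.019 ± 0.13 and UGT71B1 by -0.054 ± 0.12. UGT71C5 was 0.10 without saliva replicate 3, and UGT71B1 was 0.018 without control replicate 2. UGT71B6, another abscisic acid glucosyltransferase, was not detected, at signals of 0.553 to 8.32 in the controls and 6.05 to 12.7 with saliva.

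UGT76E11 (AT3G46670), which acts on flavonoids, had signals of 89.9, 94.5 and 85.7 in control replicates 1 to 3 and 79.2, 70.0 and 81.7 in saliva replicates 1 to 3. All saliva arrays lay below all control arrays by a small margin. The difference was -0.19 ± 0.11 (limma adjusted p = 0.609), and -0.23 without saliva replicate 3. UGT76C1 and UGT76C2 form N-glucosides of cytokinins, which inactivates them. UGT76C2 (AT5G05860) had signals of 134, 97.3 and 101 in control replicates 1 to 3 and 109, 107 and 78.9 in saliva replicates 1 to 3, and differed by -0.15 ± 0.15 (-0.016 without saliva replicate 3 and -0.018 without control replicate 1). UGT76C1 (AT5G05870) differed by -0.034 ± 0.15, and by 0.11 without saliva replicate 3. For both genes the groups overlapped, and the limma 95% intervals were -0.46 to 0.17 and -0.36 to 0.30.

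Flavonol 3-O-glycosides are made by UGT78D1, a rhamnosyltransferase, UGT78D2, a glucosyltransferase, and UGT78D3, an arabinosyltransferase. UGT78D2 (AT5G17050) had signals of 59.9, 47.3 and 43.8 in control replicates 1 to 3 and 55.4, 58.5 and 52.0 in saliva replicates 1 to 3. UGT78D1 (AT1G30530) had 43.3, 34.8 and 62.6 and then 37.4, 42.3 and 51.7. Both pairs of groups overlapped. UGT78D2 had an interval of -0.17 to 0.39 and UGT78D1 one of -0.41 to 0.30. UGT78D3 was not detected, at 5.44 to 12.9 in the controls and 2.23 to 10.3 with saliva.

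UGT80B1 (AT1G43620), a sterol glucosyltransferase, is of another lineage than the other families here. Its signals were 116, 116 and 124 in control replicates 1 to 3 and 107, 96.1 and 146 in saliva replicates 1 to 3. The controls lay close together, with saliva replicate 3 above and the other saliva arrays below them. The difference was -0.042 ± 0.14, and -0.20 without saliva replicate 3. UGT88A1 (AT3G16520) had signals of 535, 476 and 440.0 in control replicates 1 to 3 and 579, 516 and 510.3 in saliva replicates 1 to 3, and differed by 0.14 ± 0.11 with overlapping groups, and by 0.080 without control replicate 3 and 0.22 without control replicate 1.

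Family 73 holds enzymes for brassinosteroids, cytokinins, flavonols and foreign compounds. UGT73B1 (AT4G34138) had signals of 34.4, 42.9 and 26.6 in control replicates 1 to 3 and 41.4, 50.7 and 37.1 in saliva replicates 1 to 3, a difference of 0.23 ± 0.15 (limma adjusted p = 0.655) with overlapping groups, and 0.11 to 0.34 without single arrays (control replicates 3 and 2). UGT73B5 (AT2G15480), which takes part in the response to pathogens, was not detected. Its signals were 6.86, 9.39 and 4.67 in control replicates 1 to 3 and 12.05, 12.01 and 14.6 in saliva replicates 1 to 3. All saliva arrays were above all control arrays, though every signal was under 16.

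In a fit of all 22746 probe sets UGT73B5 differed by 0.33 ± 0.12 (limma adjusted p = 0.569). UGT76E1, which acts on hydroxylated jasmonate, was the other gene not detected whose groups did not overlap, at 1.29 to 2.64 in the controls and 3.01 to 7.19 with saliva. These were 2 of 24 genes, or 8.33%, against 13.2% of all probe sets in that fit, and by limma none of the 24 reached an adjusted p of 0.05, which 1 probe set of that fit did (0.0044%). At an unadjusted p under 0.05 there was 1 gene, UGT73B5, or 4.17% against 7.94% of all probe sets.

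Many UGT genes lie side by side in the genome as copies of each other. In the RefSeq gene order, runs of neighbouring UGT genes with no other protein-coding gene between them were sought. Only runs with at least 2 of the 47 genes were counted, which gave 10 runs with 24 of the 47. Other genes of the 47 may still have a UGT neighbour. All named genes were detected in 1 run (UGT76C1 and UGT76C2), some in 3 and none in 6. In the run of UGT85A genes UGT85A2, UGT85A5 and UGT85A3 were detected and UGT85A7 was not. In that of UGT71C5, UGT71C4 and UGT71C3 the last was not detected, and in that of UGT84A1, UGT84A3 and UGT84A4 the first was not. In each of the 4 runs with at least 2 detected genes, these had differences of the same sign, several of them smaller than their standard error. Without saliva replicate 3 the sign turned for UGT71C5 (0.10) and UGT76C1 (0.11). It also turned for UGT85A2 without saliva replicate 1 (-0.0067) and for UGT84A4 without control replicate 3 (0.13). In none of these runs did the shared sign hold with each array left out. Whether the probe sets of such near copies pick up each other's transcripts was not tested.

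**Figure D4:**
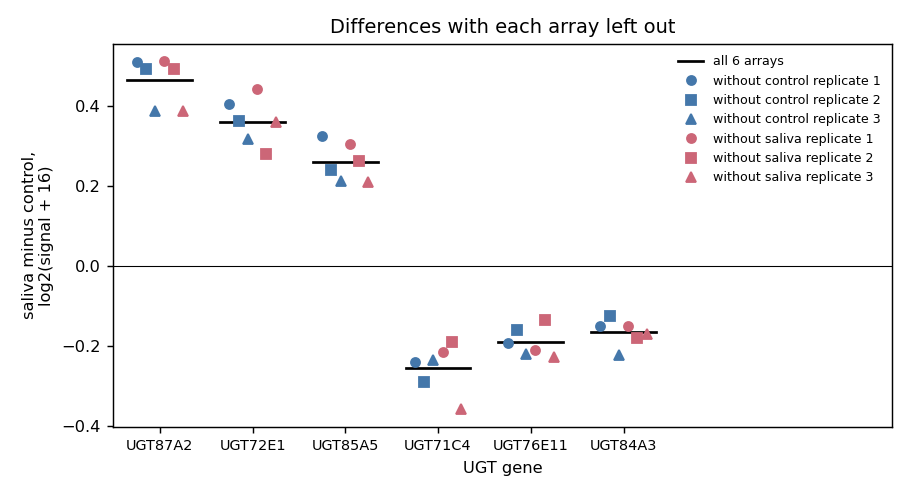
Difference between saliva and control (vertical axis, log2(signal + 16)) for the 6 genes (horizontal axis) with an unadjusted p under 0.05 or groups that do not overlap, with all 6 arrays (black bars) and with each array left out (blue for a control array, red for a saliva array, shapes for replicates 1 to 3). Each gene kept its sign. UGT87A2 ran from 0.39 to 0.51 and UGT71C4 from -0.36 to -0.19.

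With single arrays left out, 0 of the 23 genes passed an adjusted p of 0.05 in limma each time, where 1 to 14 of all tested probe sets passed. The count at an unadjusted p under 0.05 was 4 without saliva replicate 1 or 3, 3 without control replicate 1 or 3, 2 without control replicate 2 and 1 without saliva replicate 2. UGT87A2 was among them each time. For these fits the shares of all tested probe sets at that p are not given, so the counts cannot be set against the background. The size of the differences can be seen against the other probe sets in the plot of all tested probe sets, where the UGT genes lie inside the main cloud. The median size of the difference, leaving out its sign, was 0.15 over the 23 genes and 0.11 over all tested probe sets.

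**Figure D5:**
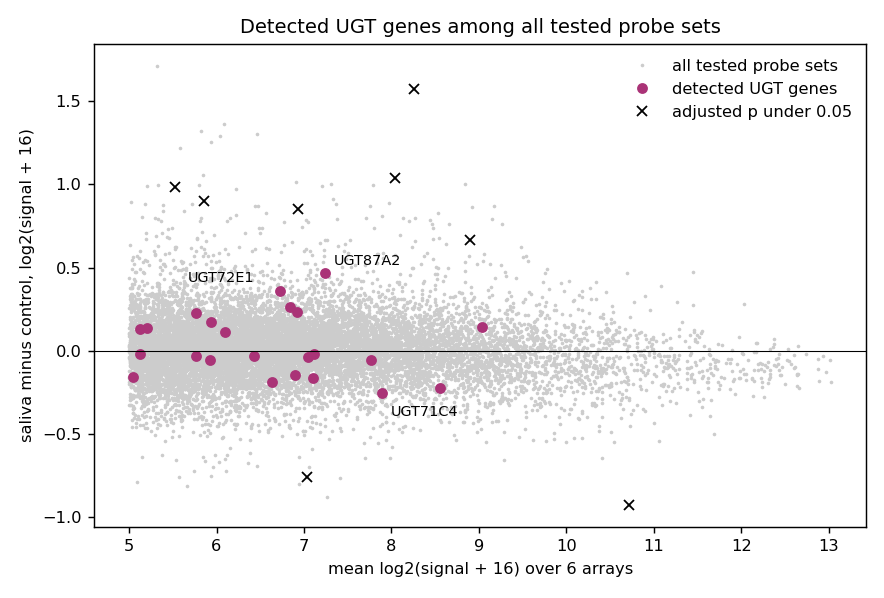
Difference between saliva and control (vertical axis, log2(signal + 16)) against the mean level over 6 arrays (horizontal axis, log2(signal + 16)) for the 13801 tested probe sets (grey), the 23 detected UGT genes (purple) and the 8 probe sets with an adjusted p under 0.05 (crosses). No UGT gene is among the 8.

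Another 4 genes carry a UGT name only as a synonym in RefSeq and were not among the 47. They were looked up after the values had been seen. UGT72B1 (GT72B1, AT4G01070), which conjugates foreign phenols and monolignols, had signals of 467, 455 and 366 in control replicates 1 to 3 and 413, 532 and 508 in saliva replicates 1 to 3, and differed by 0.17 ± 0.13. The sterol enzyme UGT80A2 (SGT, AT3G07020) differed by -0.059 ± 0.11. UGT79B1 (UF3GT, AT5G54060), which adds xylose to anthocyanins, was not detected, at 1.67, 6.98 and 2.14 in control replicates 1 to 3 and 13.2, 6.08 and 27.8 in saliva replicates 1 to 3, where saliva replicate 2 lay inside the control range. UGT79B6 was not detected either.

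Genes beside the glycosylation step were read from lists chosen for it. Of 27 genes of UDP-sugar synthesis 1 was named on the array, USP (AT5G52560), the UDP-sugar pyrophosphorylase, which differed by -0.058 ± 0.13. Of 20 named BGLU genes, a family of enzymes that cut glucosides, 7 were tested and 0 passed an adjusted p of 0.05 in limma. At an unadjusted p under 0.05 there were 0 higher and 1 lower (1 of 7, against 10.2% of all probe sets tested), BGLU33, which differed by -0.49 ± 0.13 (limma adjusted p = 0.174). BGLU33 (AT2G32860) had mean signals of 135 in the controls and 92.5 with saliva. The groups did not overlap for 2 of the 7, BGLU33 and BGLU47, both lower, against 15.5% of all probe sets tested. BGLU25, BGLU16 and BGLU47 differed by 0.30, 0.21 and -0.18, and the median of the 7 was 0.057.

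Of 13 named glutathione transferase genes of the tau and phi classes, which attach glutathione to foreign and reactive compounds, 4 were tested. By limma the adjusted p was at least 0.538 for each, and 0 of 4 were under 0.05 before adjustment, against 10.2% of all probe sets tested. GSTU20, GSTU18, GSTU16 and GSTU27 differed by -0.22, -0.10, 0.086 and 0.054, with a median of -0.023.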

How the data were processed

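The deposited table gives a linear intensity for each probe set on 6 Affymetrix ATH1 arrays. Per the submitters' processing notes MAS5, GCOS and limma were used, with no role or version given in the sources used here. The authors' scaling was kept, since trimmed means were equal. The 64 control probe sets were left out and values put on the scale log2(signal + 16). The 13801 of 22746 probe sets with a mean of at least 5 over the 6 arrays were tested, saliva against control, with limma 3.58.1 under R 4.3.3, using lmFit and then eBayes with its trend option. Tests were two-sided, with p adjusted by Benjamini-Hochberg over all tested probe sets and a threshold of 0.05. A bare ± gives the standard error of the fit. The number of arrays limits the precision.

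Platform symbols were matched to RefSeq by gene identifier (99.4% found). 0 columns belonged to other samples. The genes, lists and threshold were chosen with earlier results of these data known. Genes described singly were the 12 with the smallest unadjusted p, the brightest of each family, the 5 brightest, those nearest the threshold, and a short list with known roles. For each other list up to 4 genes with the smallest unadjusted p were named. Other genes were added for their role or after their values were seen. The fit was also run on simulated data, whose outcome is not given here, and no support is drawn from it. Alternatives changed the offset, filter, scaling, trend, array weights, replicate block and arrays.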

Additional observations from a re-analysis of the deposited data

How the results depend on the processing

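The count of 0 UGT genes with a limma adjusted p under 0.05 held under all alternatives run. Since at most 53 of all probe sets passed in any of them, this count says little about the UGT genes. The count of 5 genes whose groups do not overlap was 6 to 8 without single arrays, where fewer values are compared. That of 4 at an unadjusted p under 0.05 was 1 to 4. Matching shares of all tested probe sets are not given, so these counts are no result about the UGT genes. The median difference of -0.019 ran from -0.0084 to 0.070 without single arrays. Over all probe sets the count of 8 (6 higher, 2 lower) was 2 with an offset of 1 or 64, 2 with the lowest 60% left out, 1 with no filter, 1 without a trend, 1 with quantile normalization (1 higher, 0 lower), 53 with array weights (33 higher, 20 lower), and 1 to 14 without single arrays. The cause was not tested. UGT84A4 was 0.020 with array weights. Without single arrays UGT84A4 ran from -0.21 to 0.13, UGT78D1 from -0.20 to 0.12, UGT80B1 from -0.20 to 0.070, UGT71B1 from -0.15 to 0.018 and UGT85A2 from -0.0067 to 0.36, so their signs are not settled. The signs of UGT71C5, UGT76C1 and UGT74D1 are not settled either, at 0.10, 0.11 and 0.013 without saliva replicate 3. Detected genes numbered 29 at a mean of at least 4.5, 19 at 5.5, 19 when every array had to reach 5, and 24 with an offset of 64.

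Same-numbered control and saliva arrays had correlations of deviations from the group means of -0.060, 0.12 and 0.15. These do not settle whether the numbers mark pairs, and the main fit did not take them as pairs. With the replicate block 29 probe sets passed in place of 8, 0 of them UGT genes. In that fit 3 UGT genes had an unadjusted p under 0.05 (UGT71C4, UGT72E1 and UGT87A2), and the share of all probe sets is not given. Replicates 2 and 3 of both groups correlated best with their own number, and replicate 1 of neither group did.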
